A study of Homo sapiens with 6 samples.

Results

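The glutathione transferases are a superfamily of enzymes that join the tripeptide glutathione to electrophilic compounds. The 10 genes GSTA1, GSTA4, GSTK1, GSTM3, GSTM4, GSTO1, GSTP1, GSTZ1, MGST1 and MGST2 were followed here. They were chosen by gene name, with earlier results of these data known. They are not the whole superfamily, and further transferases are described below as a separate list. The 10 are among 19775 genes with a probe set of their own on the array, and they had 19 of 54613 probe sets. RNA of HT29 cells, an established human colon adenocarcinoma line, was hybridized to 6 Affymetrix HG U133 PLUS 2.0 arrays. 3 arrays came from cells resistant to 10 μM methotrexate (MTX), an antifolate drug, and 3 from the sensitive parental cells. The resistant cells had been selected with stepwise increasing MTX and were kept with dialyzed serum in a medium that supplies no glycine, hypoxanthine or thymidine. Sensitive cells grew in Ham's F12 medium with undialyzed serum, so the effects of medium and of resistance cannot be told apart. Each state is a single line of cells, and no source used here says that the triplicates were separate cultures. The p-values therefore cover no more than the variation among these arrays, and that could be technical.

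Soluble glutathione transferases form classes that carry Greek letters (alpha, mu, pi, theta, zeta and omega). The kappa enzyme stands apart from these classes and is found in mitochondria and peroxisomes. Microsomal members (MGST1, MGST2) sit in membranes and belong to the MAPEG family, which also makes leukotrienes and prostaglandins. Conjugates leave the cell through exporters of the ABC family, and the glutathione that is used is replaced by synthesis or by reduction of its disulfide. In the intestine these enzymes handle electrophiles of the diet and products of lipid peroxidation, and in tumour cells they have long been studied in connection with drug resistance.

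Levels are given as scaled signals, which are the deposited MAS5 signals of an array over that array's median, with the median probe set thus at 1. Array medians were 13.3 to 16.9 in resistant cells and 14.2 to 15.4 in sensitive cells. A filter kept probe sets whose scaled signals averaged 1 or more across all arrays. Log2 values were then compared by limma, and a call is an adjusted p under 0.05 with Benjamini-Hochberg adjustment over all genes or all probe sets tested. At the level of genes, where the brightest probe set stands for a gene, 12.4% of 11835 genes were called higher and 22.5% lower in resistant cells. The median log2 fold change of all genes was -0.10, against 0.02 after quantile normalization, and the split of 1472 higher and 2659 lower genes became 2502 and 2229 with that scaling. For ACTB, whose control probe sets at the 3' and 5' ends of the transcript serve as a measure of RNA integrity, the ratio of both ends was 1.25 ± 0.0698 in resistant and 1.14 ± 0.022 in sensitive cells (SD, n = 3 each). The same ratio for GAPDH was 1.02 ± 0.0338 in resistant and 1.01 ± 0.0054 in sensitive cells (SD, n = 3 each). Of 10 colon epithelial markers, 8 were tested, of which 1 was called higher and 5 lower, and the summed scaled signal of all 10 was 1597 to 1795 in resistant and 2056 to 2268 in sensitive cells. CDX1 and CDX2, transcription factors of the intestine, lay under the filter. Of 12 markers of other cell types with a probe set, 10 lay under the filter. The summed scaled signal of all 12 was 7.45 to 8.64 in resistant and 6.14 to 9.45 in sensitive cells. The part of RNA integrity and of the epithelial markers in the results was not tested.

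Of the 10 glutathione transferase genes, GSTA4 and GSTO1 rose and MGST2 and GSTK1 fell in the MTX-resistant cells. The other 5 tested genes were not called, and GSTM3 lay under the filter and was not tested. That is 4 of 9 tested genes called, beside 34.9% of all genes, with 2 higher, beside 12.4%, and 2 lower, beside 22.5%. Of the 14 member probe sets past the filter 3 were called higher, beside 9.52% of all probe sets, and 2 lower, beside 19.5%. Changes were moderate, between 1.34-fold and 1.96-fold, and none of the 10 genes reached the 3-fold change that the methods of the study require of a listed gene, which 4.13% of all genes passed with a call. Relative to the median gene, GSTA4 was at 1.07, GSTO1 at 0.69, MGST2 at -0.48 and GSTK1 at -0.33. In RNA of whole cultures, fewer cells with a transcript and less of it per cell cannot be told apart. The groups did not overlap in 6 of the 9 genes (background 46.2%), 3 higher (background 16.8%) and 3 lower (background 29.3%). The methods' t-test on the same values with Benjamini-Hochberg adjustment called GSTO1 alone with equal variances and no member with unequal variances.

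**Figure D1:**
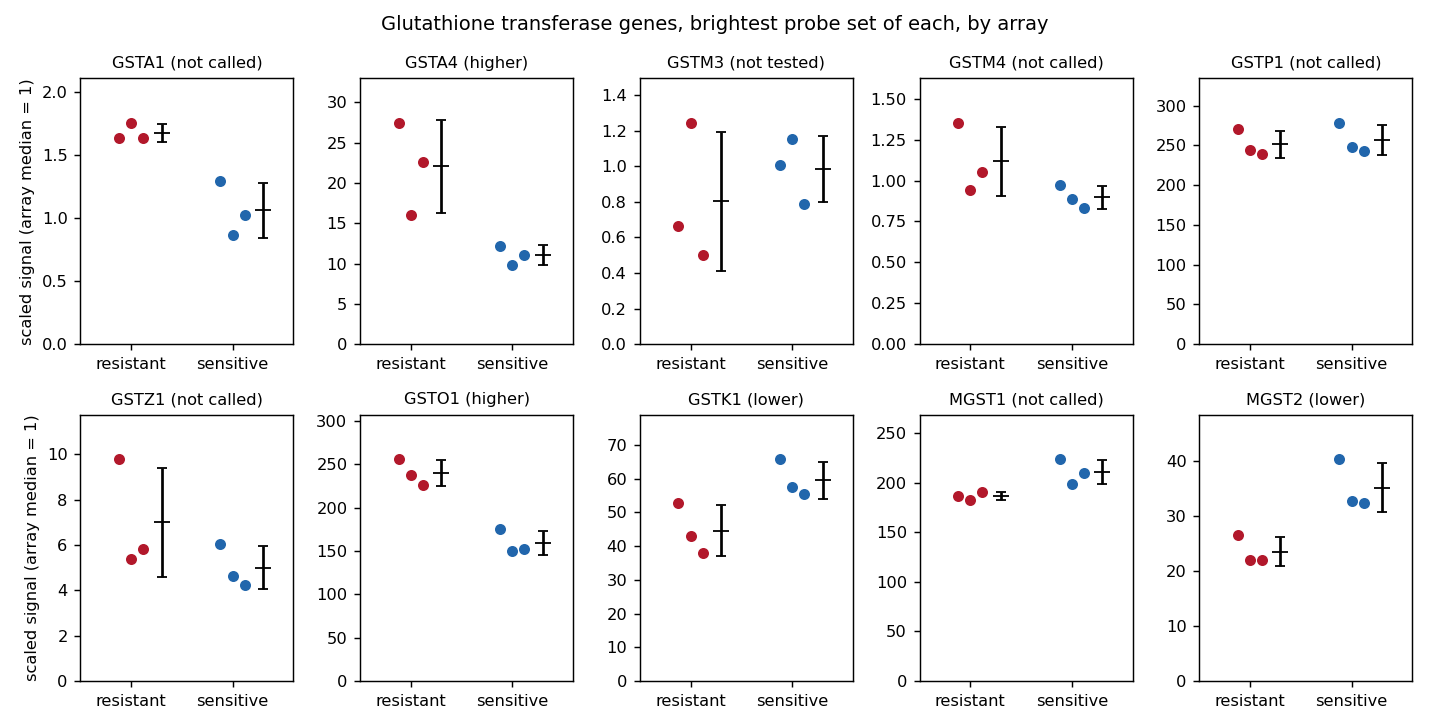
Scaled signals (array median = 1, linear axis from 0) of the brightest probe set of each of the 10 genes, with 1 point per array, resistant arrays in red and sensitive arrays in blue, and the mean ± SD of each group in black. GSTA4 and GSTO1 are higher and MGST2 and GSTK1 lower in resistant cells with no overlap, while the groups of GSTP1 overlap, with all 6 arrays between 239 and 278.

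In the alpha class, GSTA4 had the largest change of all 10 genes. Its product conjugates hydroxynonenal and related aldehydes that arise from oxidized lipids. GSTA4 (202967_at) had scaled signals of 27.5, 16.01 and 22.7 in resistant cells, against 12.2, 9.79 and 11.1 in sensitive cells. Every resistant array lay above every sensitive one, and the spread was wider among the resistant arrays (22.0 ± 5.76) than among the sensitive ones (11.03 ± 1.22; SD, n = 3 each). The log2 fold change was 0.97 (standard error 0.18, adjusted p = 4.5e-05 from limma), a 1.96-fold rise. A second probe set of GSTA4 (235405_at) gave 2.39, 3.59 and 3.83 in resistant and 2.20, 2.49 and 3.83 in sensitive cells. These groups overlapped, and its log2 fold change of 0.22 was not called (95% confidence interval -0.32 to 0.75, adjusted p = 0.58 from limma), and the probe sets for GSTA4 therefore disagree. With the mean of both probe sets GSTA4 was at 0.59 and was still called.

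GSTA1, an alpha-class enzyme that acts on bulky electrophiles and steroids, was near the array median. Its brighter probe set (215766_at) had scaled signals of 1.63, 1.76 and 1.64 in resistant and 1.30, 0.867 and 1.03 in sensitive cells. The groups did not overlap, yet the log2 fold change of 0.68 was not called (95% confidence interval -0.20 to 1.55, adjusted p = 0.23 from limma). limma without the mean-variance trend called it (adjusted p = 0.030), and 14 of 15 alternatives did not (adjusted p of up to 0.44). The other probe set (203924_at) stayed under the filter, at 0.364 ± 0.313 in resistant and 0.652 ± 0.43 in sensitive cells (SD, n = 3 each). Genes of the alpha class are close copies of each other, so a probe set may also take up transcripts of a neighbour.

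GSTO1 was the second member that rose. The omega enzymes reduce dehydroascorbate and can remove glutathione from proteins. GSTO1 (201470_at) had scaled signals of 256, 237 and 226 in resistant cells, against 175, 150 and 152 in sensitive cells. All resistant arrays lay above all sensitive ones, by more than the spread within either group. The log2 fold change was 0.59 (standard error 0.10, adjusted p = 1.7e-05 from limma), a 1.51-fold rise. Its second probe set (1557915_s_at) gave 205, 180.2 and 194 in resistant and 144, 121 and 124 in sensitive cells, a log2 fold change of 0.58 (adjusted p = 0.00026 over all probe sets, limma). Both probe sets of GSTO1 thus rose by a like amount.

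MGST2, a microsomal enzyme that can also make a leukotriene, had the largest fall. MGST2 (204168_at) had scaled signals of 26.5, 22.0 and 22.1 in resistant cells, against 40.3, 32.8 and 32.5 in sensitive cells. No resistant array reached the lowest sensitive one. The log2 fold change was -0.58 (standard error 0.16, adjusted p = 0.0037 from limma), so that the sensitive level was 1.49-fold that of resistant cells. Without sensitive replicate 1, the highest of the 3, it was -0.48 and no longer called (adjusted p = 0.057 from limma).

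GSTK1 encodes the kappa enzyme of mitochondria and peroxisomes. Its scaled signals (217751_at) were 52.8, 42.9 and 38.1 in resistant cells, against 65.7, 57.5 and 55.3 in sensitive cells. The groups did not overlap, but the highest resistant array came close to the lowest sensitive one. The log2 fold change was -0.43 (standard error 0.15, adjusted p = 0.022 from limma), with the sensitive level at 1.34-fold the resistant one. This was the least stable of the 4 calls, since 7 of 16 alternatives ended it (adjusted p of up to 0.20). After quantile normalization GSTK1 was at -0.23 and not called (adjusted p = 0.072 from limma), and the call was also lost without resistant replicate 3 (-0.32), sensitive replicate 1 (-0.35) or sensitive replicate 2 (-0.45).

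GSTP1, the pi enzyme and the glutathione transferase most often described in solid tumours, did not move beyond its spread. GSTP1 (200824_at) had scaled signals of 271, 244 and 239 in resistant cells, against 278, 248 and 244 in sensitive cells. In both groups replicate 1 was the highest array, and the groups overlapped almost fully. The log2 fold change was -0.03 (95% confidence interval -0.22 to 0.17, adjusted p = 0.84 from limma), and its sign turned under other scalings. In the deposited signals, before division by the array median, GSTP1 stood at 3603, 3903 and 4035 in resistant and 3954, 3713 and 3750 in sensitive cells.

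MGST1, a membrane enzyme that also reduces lipid hydroperoxides, was measured by 5 probe sets. The brightest (231736_x_at) had scaled signals of 187, 182 and 190.3 in resistant and 223, 199 and 209.5 in sensitive cells. The groups did not overlap, but the log2 fold change of -0.17 was not called (95% confidence interval -0.38 to 0.03, adjusted p = 0.18 from limma). The probe sets 224918_x_at and 1565162_s_at were at -0.14 and -0.08, and 239001_at, with signals of 3.06 to 5.95 over the 6 arrays, was at -0.13, none of them called. The fifth (240688_at) stayed under the filter.

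GSTZ1, which isomerizes maleylacetoacetate in the breakdown of tyrosine, had scaled signals (209531_at) of 9.78, 5.40 and 5.85 in resistant and 6.06, 4.65 and 4.25 in sensitive cells. Resistant replicate 1 lay apart from the other resistant arrays, and the groups overlapped. Its log2 fold change of 0.45 was not called (adjusted p = 0.092 from limma), and was 0.19 without resistant replicate 1. GSTZ1 was called higher by 5 of 16 alternatives, quantile normalization among them (0.55, adjusted p = 0.036 from limma).

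The mu-class members GSTM3 and GSTM4, which detoxify electrophiles, were at or under the array median. GSTM4 (210912_x_at) had scaled signals of 1.35, 0.944 and 1.05 in resistant and 0.972, 0.887 and 0.831 in sensitive cells. It passed the filter only through the resistant arrays, and its log2 fold change of 0.30 had a wide interval (95% confidence interval -0.80 to 1.41, adjusted p = 0.71 from limma). GSTM3 (235867_at) had scaled signals of 0.662, 1.24 and 0.503 in resistant and 1.01, 1.15 and 0.786 in sensitive cells. Both groups spanned the array median and overlapped. The second probe sets of GSTM3 (202554_s_at) and GSTM4 (204149_s_at) also lay under the filter. No detection calls were used here, so signals this low set no firm level for either gene. Mu-class genes are close copies too, and probe sets whose names end in x_at can take up more than 1 of them.

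**Figure D2:**
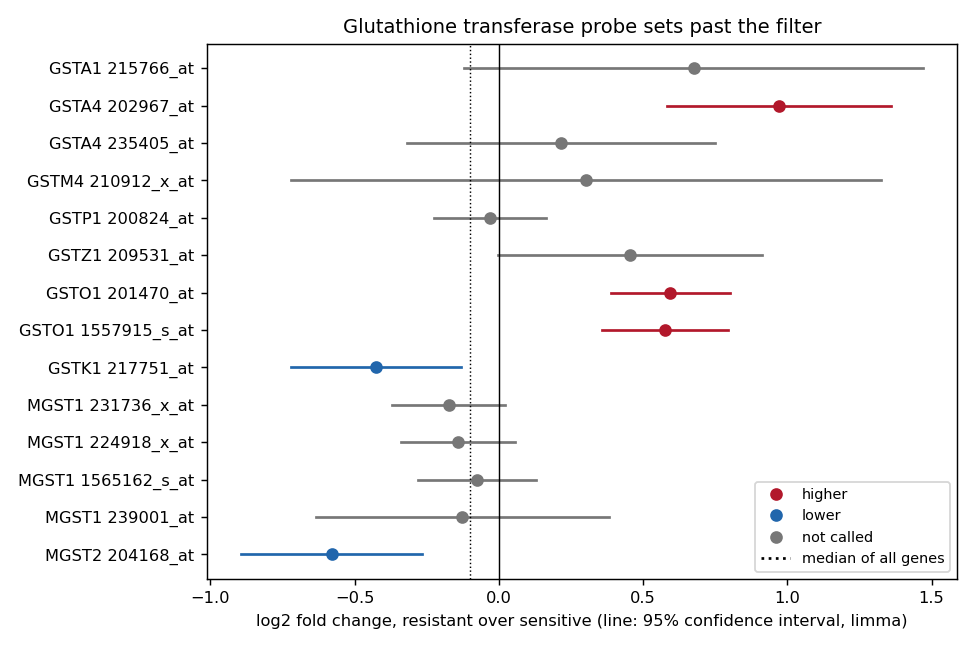
Log2 fold change (resistant over sensitive) for the 14 member probe sets past the filter, with lines for the 95% confidence interval from the fit over all probe sets and a dotted line at the median of all genes (-0.10). Both GSTO1 probe sets lie near 0.6, those of GSTA4 at 0.97 and 0.22, and MGST2 (-0.58) and GSTK1 (-0.43) lie lowest.

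**Figure D3:**
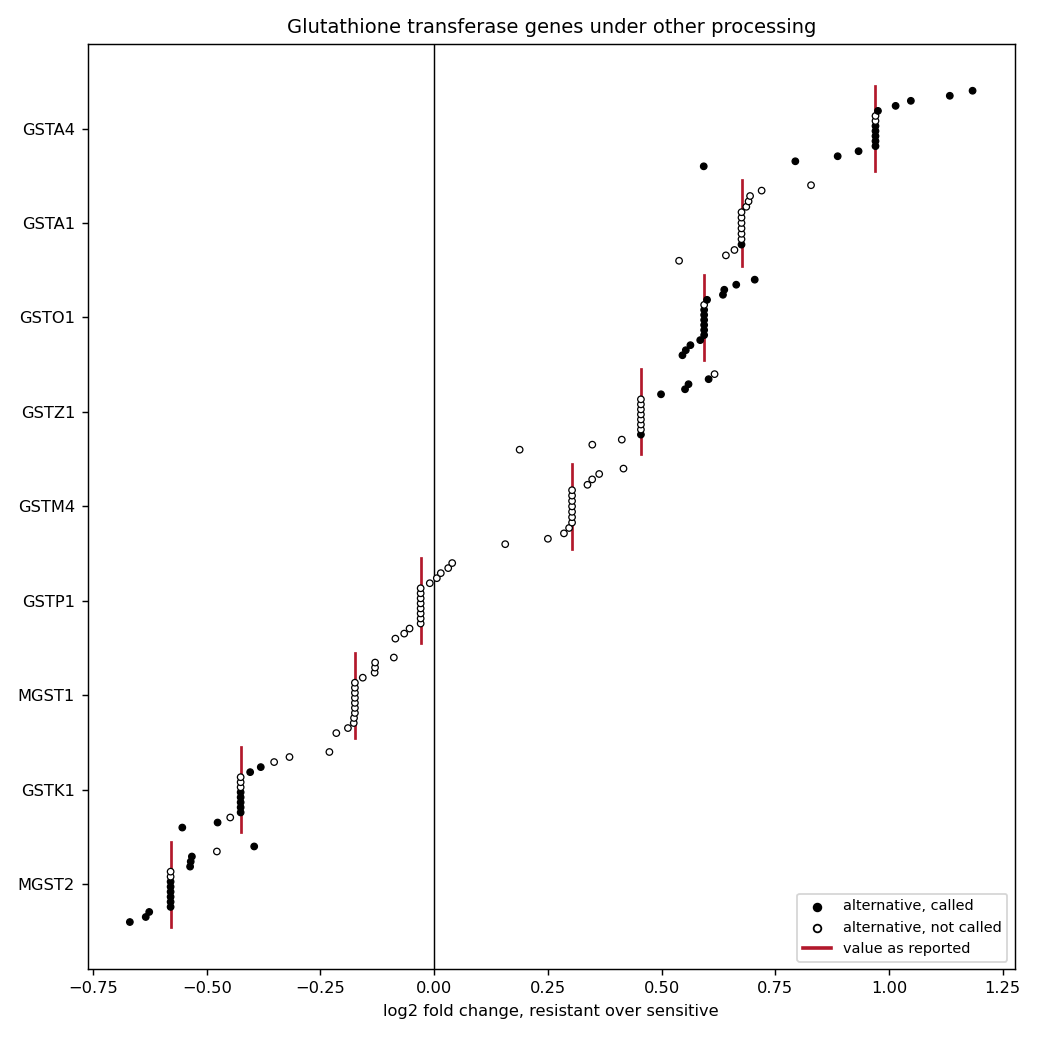
Log2 fold change (resistant over sensitive) for the 9 tested genes under each processing alternative that has a test, with filled points where the adjusted p is under 0.05, open points elsewhere and a red line at the value reported. GSTA4 keeps filled points in 14 of 16 alternatives, GSTO1 in 15, MGST2 in 13 and GSTK1 in 9, while GSTP1 stays between -0.09 and 0.04 with none filled.

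Promoter sequences are shown for 4 members that differ in their calls, from RefSeq windows on GRCh38.p14. Windows were found for 9 of the 10 genes (11 windows), but none for MGST2, which also fell and so was not searched. The 250 bases before each start were searched on both strands for TGACNNNGC, the core of the antioxidant response element. That element is bound by NRF2, the regulator of many glutathione genes. The core was found before GSTA4, GSTO1 and GSTP1, in 3 of the 11 windows, while 10.9% of all 35116 windows of that length hold it. It was not found before GSTK1, nor before GSTA1, GSTM3, GSTM4, GSTZ1 and MGST1, which were not called or not tested. GSTA4 and GSTO1 rose and GSTP1 was not called, and a match is a description and not a site. In these sequences, capitals mark the core, all 3 genes having it on the strand of the gene and GSTK1, which fell, having none. The windows are chr6:52995285-52995534 (minus strand) for GSTA4, chr10:104254642-104254891 (plus) for GSTO1, chr11:67583562-67583811 (plus) for GSTP1 and chr7:143263191-143263440 (plus) for GSTK1, each read 5′ to 3′.
GSTA4: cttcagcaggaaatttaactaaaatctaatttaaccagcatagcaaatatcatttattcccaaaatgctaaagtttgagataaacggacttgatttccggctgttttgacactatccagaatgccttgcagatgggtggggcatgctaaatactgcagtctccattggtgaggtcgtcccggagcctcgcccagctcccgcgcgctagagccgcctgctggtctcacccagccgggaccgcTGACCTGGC
GSTO1: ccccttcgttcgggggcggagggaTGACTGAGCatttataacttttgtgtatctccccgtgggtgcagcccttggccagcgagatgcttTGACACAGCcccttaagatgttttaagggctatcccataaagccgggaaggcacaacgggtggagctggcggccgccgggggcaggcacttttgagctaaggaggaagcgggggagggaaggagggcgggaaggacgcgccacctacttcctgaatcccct
GSTP1: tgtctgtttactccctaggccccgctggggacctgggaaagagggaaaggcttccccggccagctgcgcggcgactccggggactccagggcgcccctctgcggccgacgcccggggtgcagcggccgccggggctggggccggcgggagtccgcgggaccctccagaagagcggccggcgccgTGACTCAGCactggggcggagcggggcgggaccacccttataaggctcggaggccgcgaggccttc
GSTK1: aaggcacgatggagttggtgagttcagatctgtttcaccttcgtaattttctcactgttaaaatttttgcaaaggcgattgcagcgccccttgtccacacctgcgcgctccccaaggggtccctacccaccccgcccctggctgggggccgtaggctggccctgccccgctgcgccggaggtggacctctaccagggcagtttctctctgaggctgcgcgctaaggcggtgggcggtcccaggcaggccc
The cores TGACTGAGC and TGACACAGC before GSTO1 begin 226 and 161 bases before the start, TGACTCAGC before GSTP1 begins 66 bases before it, and TGACCTGGC before GSTA4 begins 9 bases before it.

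Other genes of the superfamily moved in both directions. Of 17 further transferase and MAPEG genes, 14 had a probe set of their own and 8 passed the filter. Of these 8, 2 rose, beside 12.4% of all genes, and 2 fell, beside 22.5%. GSTT1, the theta enzyme, had scaled signals of 23.7, 23.4 and 18.9 in resistant cells, against 14.6, 11.7 and 11.3 in sensitive cells, with no overlap. Its log2 fold change was 0.81 (standard error 0.17, adjusted p = 0.00021 from limma), and 0.47 with the mean of its probe sets, where it was still called (adjusted p = 0.029 from limma). MGST3, the third microsomal enzyme, had 72.0, 61.8 and 54.4 in resistant and 42.1, 40.03 and 39.1 in sensitive cells, a log2 fold change of 0.63 (adjusted p = 0.00070 from limma) that was 0.09 and not called with the mean of its probe sets past the filter. MGST2 and MGST3, both microsomal, thus moved in opposite directions at their brightest probe sets.

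The omega genes also moved apart at their brightest probe sets. GSTO2, the other omega gene and likewise a dehydroascorbate reductase, had scaled signals of 26.02, 18.7 and 17.1 in resistant cells, against 32.8, 27.3 and 29.0 in sensitive cells. The groups did not overlap, and the log2 fold change was -0.55 (standard error 0.17, adjusted p = 0.0094 from limma). However, 6 of 16 alternatives ended the call (adjusted p of up to 0.25), among them leaving out resistant replicate 3 (-0.43) or sensitive replicate 1 (-0.48). With the mean of its probe sets past the filter GSTO2 was at -0.37 and not called (adjusted p = 0.25 from limma). GSTCD, named for a transferase-like C-terminal domain, fell by 0.49 on the log2 scale (adjusted p = 0.027 from limma), a call that 10 of 16 alternatives ended. It was at -0.32 after quantile normalization and at -0.29 without resistant replicate 2, and the call was also lost without any one of the sensitive replicates. GSTM1, GSTM2, GSTM5 and PTGES, a prostaglandin synthase, were not called and were near the array median. Their log2 fold changes were 0.42, -1.41, 0.63 and -0.14, and GSTM2 came closest to a call (adjusted p = 0.051 from limma). GSTM2 was called by 4 of 15 alternatives, which were the floor of 0.25, the replicate block (adjusted p = 0.047 from limma) and leaving out resistant replicate 1 (-1.77) or 3 (-1.64), while it was at -0.82 and not called without resistant replicate 2. It passed the filter only through the sensitive arrays, and GSTM5 only through the resistant ones. GSTM1 was at 0.03 without sensitive replicate 2 and at 0.76 without sensitive replicate 1.

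Genes that make and recycle glutathione changed in both directions. Of 13 tested genes of synthesis and turnover, 4 rose, beside 12.4% of all genes, and 3 fell, beside 22.5%. The other 6 were not called, and the median log2 fold change of the 13 was 0.08. GSR, the reductase that restores glutathione from its disulfide, had scaled signals of 28.0, 22.8 and 27.8 in resistant cells, against 17.01, 16.9 and 15.1 in sensitive cells (log2 fold change 0.68, adjusted p = 0.0011 from limma). It was at 0.39 and not called with the mean of its probe sets. GCLC, the catalytic subunit of the first enzyme of glutathione synthesis, had 106, 59.5 and 92.9 in resistant and 57.6, 53.8 and 64.1 in sensitive cells. These groups overlapped, its log2 fold change was 0.52 (adjusted p = 0.0077 from limma), and 5 of 16 alternatives ended the call, among them leaving out resistant replicate 1 (0.35). LAP3, an aminopeptidase that can cleave cysteinylglycine, fell by 1.00 on the log2 scale, and SLC3A2, the heavy chain of the cystine importer, fell by 0.57 (adjusted p = 9.7e-08 and 0.0047 from limma). Without sensitive replicate 1, SLC3A2 was at -0.45 and not called. SLC7A11, the light chain of the same importer, was named after its values were seen. It had scaled signals of 49.5, 43.7 and 67.6 in resistant cells, against 34.0, 39.5 and 42.9 in sensitive cells, with no overlap, and was called higher (log2 fold change 0.45, adjusted p = 0.023 from limma). This call was ended by 8 of 16 alternatives, with 0.17 for the mean of its probe sets, 0.27 without resistant replicate 3, 0.36 without sensitive replicate 1 and 0.46 without sensitive replicate 2.

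Among 16 tested peroxidases and other enzymes that use glutathione, 4 rose, beside 12.4% of all genes, and 1 fell, beside 22.5%. The other 11 were not called, and the median log2 fold change of the 16 was -0.04. After quantile normalization 7 of this list were higher. GPX8, a peroxidase of the endoplasmic reticulum, had scaled signals of 14.5, 13.2 and 9.61 in resistant cells, against 5.71, 4.99 and 3.99 in sensitive cells. Its log2 fold change of 1.34 was the largest of the list (adjusted p = 4.4e-07 from limma). GLRX, a glutaredoxin that reduces glutathionylated proteins, had 47.7, 42.9 and 32.7 in resistant and 15.1, 17.6 and 16.6 in sensitive cells (log2 fold change 1.31, adjusted p = 3.2e-08 from limma). Both lay far above the sensitive arrays with no overlap. The secreted peroxidase GPX3 rose by 0.68, and GPX1, the peroxidase of the cytosol and mitochondria, fell by 0.51 on the log2 scale (adjusted p = 0.0013 and 0.0014 from limma).

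Of 7 tested exporters of conjugates and drugs, 2 rose, beside 12.4% of all genes, and 2 fell, beside 22.5%. Of the 2 that rose, ABCC2 passed the filter only through the resistant arrays, and with the filter at 2 it was not tested. ABCC2, an apical exporter of glutathione conjugates, had scaled signals of 2.31, 1.56 and 4.62 in resistant cells, against 0.0704, 0.4 and 0.039 in sensitive cells. It was well under the array median in every sensitive array, so the log2 fold change of 4.63 (adjusted p = 0.00069 from limma) rests on signals without a firm level and was 3.12 with signals under 0.25 set to 0.25. Without resistant replicate 3 it was 4.20 and not called (adjusted p = 0.070 from limma). ABCG2 and ABCC4 fell by 1.23 and 0.89 on the log2 scale (adjusted p = 2.1e-07 and 1.7e-05 from limma). ABCC5 was at 0.52 (adjusted p = 0.038 from limma), a call that 9 of 16 alternatives ended, among them leaving out resistant replicate 1 (0.38) or 2 (0.54) or sensitive replicate 2 (0.52) or 3 (0.44).

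**Figure D4:**
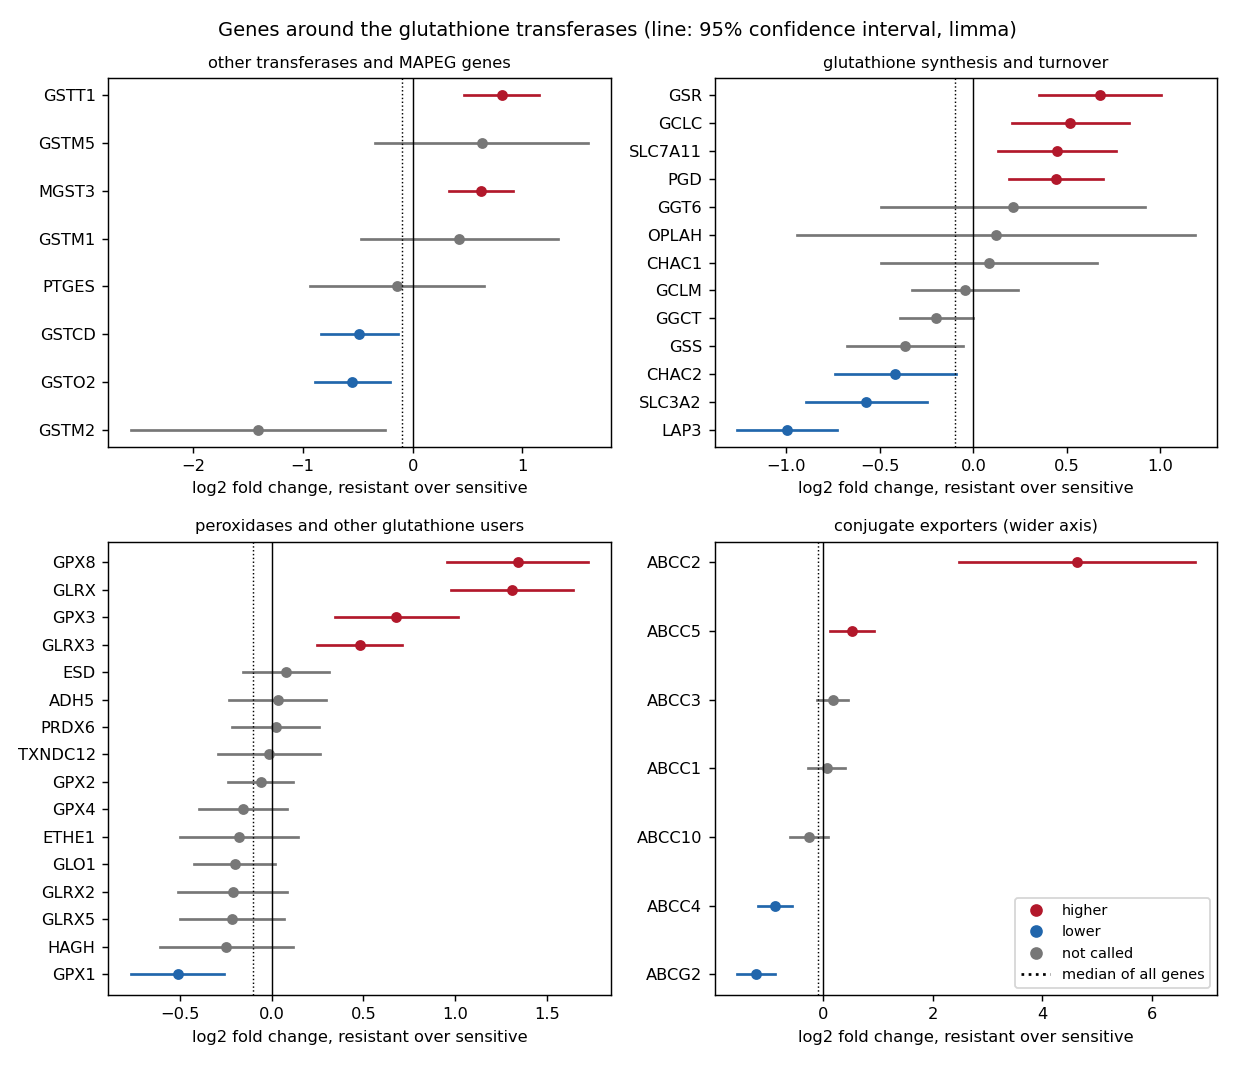
Log2 fold change (resistant over sensitive) for the tested genes of 4 lists around the glutathione transferases, with lines for the 95% confidence interval from limma, red for higher, blue for lower and grey for not called, and a dotted line at the median of all genes (-0.10). Every list holds genes on both sides, from GSTM2 at -1.41 to ABCC2 at 4.63, whose panel has a wider axis.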

How the data were processed

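All values start from the linear MAS5 intensity per probe set that the authors deposited, which they had scaled array by array. No MAS5 version is given in the sources used here. The GeneSpring steps of the methods come after these values, and only the division by the array median was repeated. Samples were grouped by the submitters' titles.

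Of 54675 probe sets, 62 controls were left out of all tests. By the platform's annotation 41091 had 1 gene, 1801 had several and 11721 had none, and only those with 1 gene were named. Symbols were updated through Entrez identifiers with RefSeq for GRCh38.p14 (41037 matched). No build is named for the signals. Scaled signals under 0.01 were set to 0.01. The limma functions lmFit and eBayes, the second with a mean-variance trend, were run on log2 values (limma 3.58.1, R 4.3.3) for 26833 probe sets and, with the brightest probe set of each gene, for 11835 genes. Values of brightest probe sets come from the fit over genes and those of other probe sets from the fit over probe sets. Plots were drawn with matplotlib 3.10.9. The fit was tested on simulated data, with 50 of 11835 genes changed at each size. It called 18% of 1.5-fold, 54% of 2-fold, 70% of 3-fold and 94% of 8-fold changes, and 5 unchanged genes. Far fewer genes were changed there than were called in the data, so these shares need not hold for the arrays. A gene that was not called may still have changed by such moderate amounts. The number of arrays limits the precision, and no scan dates were used here.

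The 10 genes, the lists and the rule for named genes were chosen with earlier results of these data known. The rule names all 10 genes, every tested gene of the list of further transferases, and up to 4 called genes of each other list by size of change. Alternatives covered the scaling, the floor, the filter, the test, the replicate block, how probe sets stand for genes, the mean used for folds, the fold threshold and each array left out in turn. List genes without a probe set of their own were not analysed here.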

Additional observations from a re-analysis of the deposited data

How the results depend on the processing

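The directions of GSTA4, GSTO1, GSTK1 and MGST2 held under all 16 tested alternatives, and their calls under 14, 15, 9 and 13 of them. With quantile normalization 3 members were higher and 1 lower, and 4 member probe sets were higher and 1 lower. With that scaling 7 glutathione-using enzymes were higher and 1 further transferase was lower. Over all genes, 2502 were higher and 2229 lower, against 1472 and 2659. The methods' t-test with equal variances called 1 member higher and 0 lower, 2 and 1 genes of synthesis and turnover, 2 and 0 glutathione-using enzymes, 0 exporters higher, 0 further transferases lower and 0 member probe sets lower (all genes 574 and 1123). With unequal variances it called 0 and 0 in every list and among member probe sets, except for 1 exporter lower (all genes 76 and 134). Without the mean-variance trend 3 members were higher and 1 lower, and 4 member probe sets were higher and 1 lower. That fit also gave 2 genes of synthesis and 1 exporter higher, and 0 further transferases lower. Without a filter 1 exporter was higher and 1 further transferase and 1 member probe set lower, and with a filter at 2, 1 exporter was higher. With the mean of all probe sets, 1 gene of synthesis, 1 exporter and 1 further transferase were higher and 0 further transferases lower. Requiring a 3-fold change left 0 and 0 in each list, except for 1 exporter, ABCC2, higher (all genes 230 and 259).

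Leaving out each array in turn gave 2 to 3 members higher and 0 to 2 lower (0 without sensitive replicate 1), 0 to 2 member probe sets lower, 3 to 4 genes of synthesis higher and 1 to 4 lower, 4 to 4 glutathione-using enzymes higher and 1 to 3 lower, 1 to 2 exporters higher, and 2 to 2 further transferases higher and 0 to 3 lower. Counts over all genes moved as well, for example to 1149 higher and 3570 lower without resistant replicate 1, against 1472 and 2659. The sign of GSTP1 turned with quantile normalization (0.040), without further scaling (0.015), without resistant replicate 3 (0.0058) and without sensitive replicate 1 (0.031). That of MGST1 turned for 1565162_s_at with quantile normalization (0.012) and for 239001_at without resistant replicate 2 (0.053) or sensitive replicate 3 (0.059), and that of PTGES without sensitive replicate 1 (0.034) or sensitive replicate 3 (0.12). None of these was called. Over the arrays left out, GSTP1 ranged from -0.085 to 0.031, 239001_at from -0.43 to 0.059 and PTGES from -0.58 to 0.12. The causes were not tested.

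The titles give same-numbered arrays of both groups no more than a shared number. Their deviations from the group means correlated weakly, at 0.075, 0.023 and 0.048, against -0.067 to 0.015 for arrays of unlike number. Each resistant array correlated best with its own number. With the replicate block, 3 members were higher, GSTZ1 being the one added (adjusted p = 0.037 from limma), and 2 lower, and 5 genes of synthesis and 2 glutathione-using enzymes were lower. Over all genes, 1775 were then higher and 3267 lower, against 1472 and 2659. Signals near or under the array median, as for GSTA1, GSTM3 and GSTM4, limit what these arrays can show.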
